A study of Homo sapiens with 6 samples.

Results

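The hnRNP A/B and D family comprised the genes HNRNPA1, HNRNPA2B1, HNRNPA3, HNRNPA0, HNRNPAB, HNRNPD and HNRNPDL. They were taken by gene symbol, which gave 7 of the 60607 genes and 183 of the 234326 transcripts in the deposited quantification, and processed pseudogenes with symbols of their own were left out. RNA came from PLC/PRF/5, an established human hepatocellular carcinoma line, harvested 48 h after transfection. The SLU7 knockdown group received siRNAs against SLU7, a factor of the second catalytic step of splicing, and the control group received siGL2, an irrelevant siRNA. Each group had 3 libraries, all of them from the same line, and the labels call them triplicates without saying whether they were separate cultures, so the p-values reflect no more than how these libraries vary, and that variation may be technical.

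The hnRNP proteins coat nascent transcripts in the nucleus. Members of the A/B and D group carry paired RNA recognition motifs followed by a glycine-rich tail, and they are known for repressing splice sites, for moving between nucleus and cytoplasm and for setting the stability of mRNAs. Several of them, hnRNP A1, hnRNP A2/B1 and hnRNP D-like among them, are known to limit their own expression through alternative splicing of their own transcripts, in part by forms that are removed by nonsense-mediated decay. hnRNP A1 and A2/B1 are the classical antagonists of SR proteins in splice site choice, and hnRNP D, also called AUF1, binds AU-rich elements of short-lived mRNAs.

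The knockdown libraries held between 5191452 and 6315740 estimated counts and the control libraries between 7736584 and 8693977. Mitochondrial ribosomal RNA took 29.9% to 35.3% of the counts in the knockdown libraries and 16.8% to 24.1% in the controls, and 7SL RNA took 8.09% to 10.6% in the knockdown libraries and 15.8% to 23.5% in the controls, so both shares separated the groups. SLU7 itself averaged 9.38 ± 1.08 CPM in the knockdown and 18.8 ± 1.89 CPM in the control (SD, n = 3 each), a log2 fold change of -1.002 (SE 0.18, edgeR adjusted p = 0.0139). In TPM, which accounts for transcript length, its groups overlapped, at 4.38 ± 0.28 in the knockdown and 4.70 ± 1.25 in the control. That scale was shifted upward in the knockdown, where the median of all genes was 0.35 higher on log2(TPM + 1). All 8 hepatocyte markers looked for were abundant enough to be tested, and the summed levels of 6 immune, 6 fibroblast and 5 endothelial markers overlapped between the groups, with COL3A1, LUM, KDR and TEK at 0 in every library. The deviations of control replicate 1 and knockdown replicate 3 from their own groups correlated at 0.44 across genes, the highest value between a knockdown and a control library. Those of control replicate 3 and knockdown replicate 1 correlated at 0.38, so the first pair was not alone in this. Results are also given without control replicate 1 and knockdown replicate 3 where a call depends on them. That pair was picked from these same data, so fits without it are no independent check.

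With SLU7 knocked down, 4 of the 7 genes rose and none fell. HNRNPA3 rose 2.4-fold, HNRNPA2B1 2.12-fold, HNRNPA1 1.76-fold and HNRNPD 1.73-fold, whereas HNRNPDL, HNRNPAB and HNRNPA0 did not pass the test. In the same edgeR quasi-likelihood fit with Benjamini-Hochberg adjustment at 0.05, 1015 of 17109 genes (5.93%) rose and 1356 (7.93%) fell. All 7 log2 fold changes were above 0, as were 49.6% of those over all genes, and the family's median was 0.79 against -0.0068 over all genes. In 6 of the 7 genes every knockdown library was above every control library in CPM, the counts scaled to the TMM-adjusted library size, which held for 17.8% of all genes. The 7 genes together took 0.102%, 0.105% and 0.114% of all estimated counts in the knockdown libraries and 0.0650%, 0.0466% and 0.0577% in the controls. Their summed level was 1047 ± 86.1 CPM in the knockdown and 588.0 ± 113 CPM in the control (SD, n = 3 each). In these bulk samples, a change in the share of cells with high expression and a change per cell cannot be told apart.

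**Figure D1:**
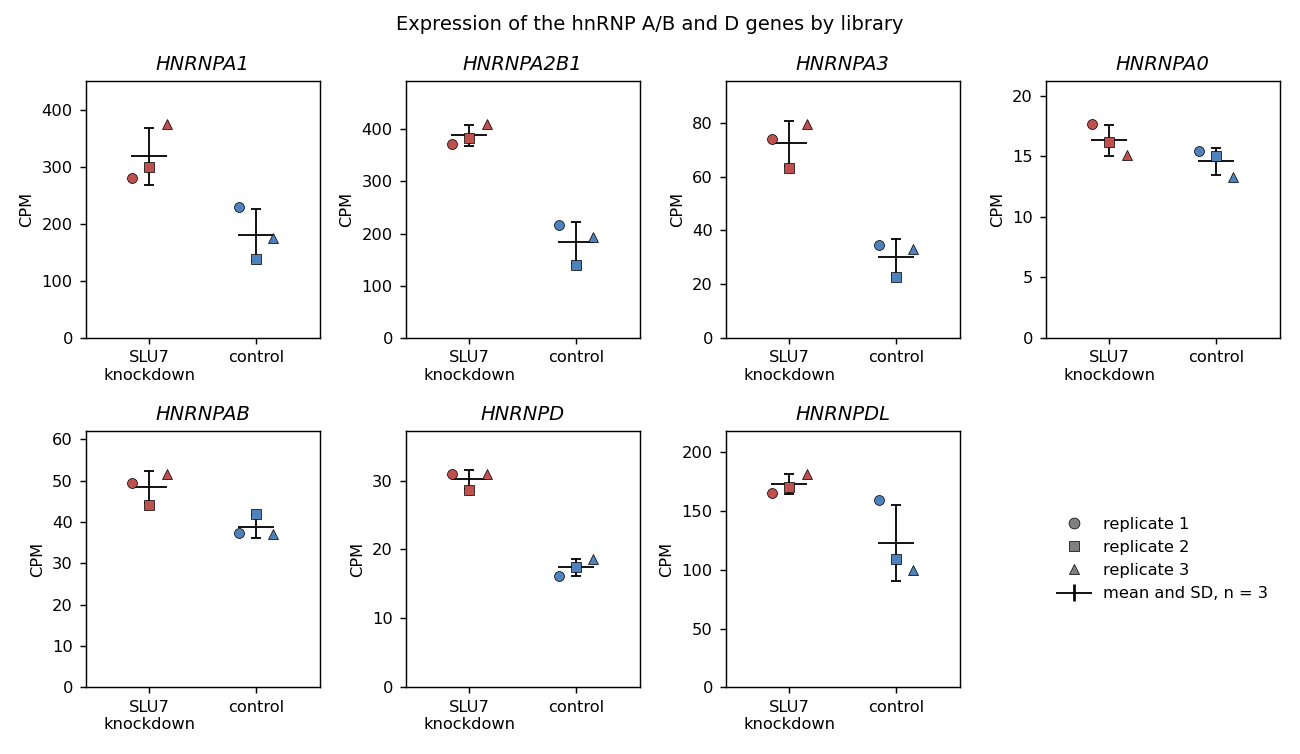
Expression of each gene in CPM (y axis, from 0) in the 3 SLU7 knockdown libraries (red) and the 3 control libraries (blue), with a symbol per replicate and bars for the mean and SD. The groups are separate in every panel except HNRNPA0, where knockdown replicate 3 (15.1 CPM) lies below control replicate 1 (15.5 CPM).

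HNRNPA1 (ENSG00000135486.19, chr12:54280193-54287088, plus strand, GRCh38 in GENCODE 29 as all gene coordinates here) encodes hnRNP A1, a repressor of exon inclusion that shuttles between nucleus and cytoplasm. It measured 280.6, 299.5 and 375.9 CPM in the knockdown libraries, against 229.9, 138.9 and 174.6 CPM in the controls. Knockdown replicate 3 was the highest library and control replicate 1 was the control nearest to the knockdown range. The log2 fold change was 0.81 (SE 0.22, adjusted p = 0.0420), the weakest of the 4 calls by p.

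HNRNPA2B1 (ENSG00000122566.22, chr7:26173057-26201529, minus strand) encodes hnRNP A2 and its longer splice form B1, which act in splicing and in mRNA transport. It measured 371.8, 382.8 and 410.7 CPM in the knockdown libraries, against 216.4, 139.6 and 193.7 CPM in the controls. The knockdown values lay within a narrow band well above the highest control. The log2 fold change was 1.08 (SE 0.20, adjusted p = 0.0137).

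HNRNPA3 (ENSG00000170144.21, chr2:177212563-177223958, plus strand) encodes hnRNP A3, a close relative of A1 and A2 that binds trafficking elements in cytoplasmic mRNAs. It measured 74.1, 63.4 and 79.8 CPM in the knockdown libraries, against 34.7, 22.5 and 33.2 CPM in the controls. The lowest knockdown library was above the highest control by a wide margin, and the log2 fold change, 1.26 (SE 0.19, adjusted p = 0.00988), was the largest of the family in this fit. With transcript length offsets and on both TPM scales that of HNRNPA2B1 was larger.

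HNRNPD (ENSG00000138668.19, chr4:82352498-82374503, minus strand), the gene of AUF1, measured 30.9, 28.6 and 31.0 CPM in the knockdown libraries, against 16.2, 17.4 and 18.7 CPM in the controls. Its replicates were the tightest of the 4 genes that rose, and the groups were far apart. The log2 fold change was 0.79 (SE 0.15, adjusted p = 0.0154). HNRNPDL (ENSG00000152795.18, chr4:82422564-82430408, minus strand), its paralog and neighbour on chromosome 4, measured 165.2, 170.7 and 181.8 CPM in the knockdown libraries, against 159.3, 109.0 and 99.7 CPM in the controls. Control replicate 1 came close to the knockdown range while the other controls were well below it, and the log2 fold change of 0.49 (SE 0.20, adjusted p = 0.128) did not pass.

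HNRNPAB (ENSG00000197451.12, chr5:178204507-178211163, plus strand), which encodes a protein that binds CArG boxes in promoters and trafficking elements in mRNA, measured 49.4, 44.2 and 51.8 CPM in the knockdown libraries, against 37.4, 42.1 and 37.1 CPM in the controls. The groups did not overlap, but control replicate 2 and knockdown replicate 2 were close, and the log2 fold change was 0.32 (SE 0.14, adjusted p = 0.162). HNRNPA0 (ENSG00000177733.7, chr5:137745651-137754376, minus strand), known as a target of the stress kinase pathway that stabilises inflammatory mRNAs, measured 17.7, 16.2 and 15.1 CPM in the knockdown libraries, against 15.5, 15.002 and 13.3 CPM in the controls. These ranges overlapped, and its log2 fold change of 0.17 (SE 0.17, adjusted p = 0.532) was the smallest of the family.

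The calls depended on which libraries were in the fit and on how transcript length was treated. Without knockdown replicate 2 none of the 7 passed, and neither did any other gene in edgeR, although 4244 genes had an unadjusted p under 0.05. Without knockdown replicate 1 HNRNPA3 passed, as did 337 of 18584 genes in all. Without control replicate 2 (456 of 17467 genes passed) or control replicate 3 (624 of 17429) HNRNPA2B1 and HNRNPA3 passed. Without knockdown replicate 3, where 1043 of 18505 genes passed, HNRNPA1 was lost. Without control replicate 1 HNRNPDL was gained at a log2 fold change of 0.72 (adjusted p = 0.009201), and 4457 of 17583 genes passed. Without both control replicate 1 and knockdown replicate 3, HNRNPDL and the 4 genes that rose passed, at log2 fold changes from 0.69 for HNRNPDL to 1.31 for HNRNPA3. In that fit 5248 of 17583 genes passed. The 2 libraries were picked from these same data, so it is no independent check of the calls. With offsets for the length of the transcripts in use, HNRNPA2B1 passed at 1.003 (adjusted p = 0.0461), and HNRNPA3 had 0.64 (adjusted p = 0.118), HNRNPD 0.61 (adjusted p = 0.125) and HNRNPA1 0.43 (adjusted p = 0.272). With offsets for GC content and length, HNRNPA1 alone of the 4 missed the threshold (0.66, adjusted p = 0.0565). Over all genes, 989 of 17109 passed with the transcript length offsets and 1819 with the GC content and length offsets. With mitochondrial and structural RNA genes removed before scaling, the 4 genes that rose kept log2 fold changes of 0.81, 1.08, 1.26 and 0.79 for HNRNPA1, HNRNPA2B1, HNRNPA3 and HNRNPD.

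**Figure D2:**
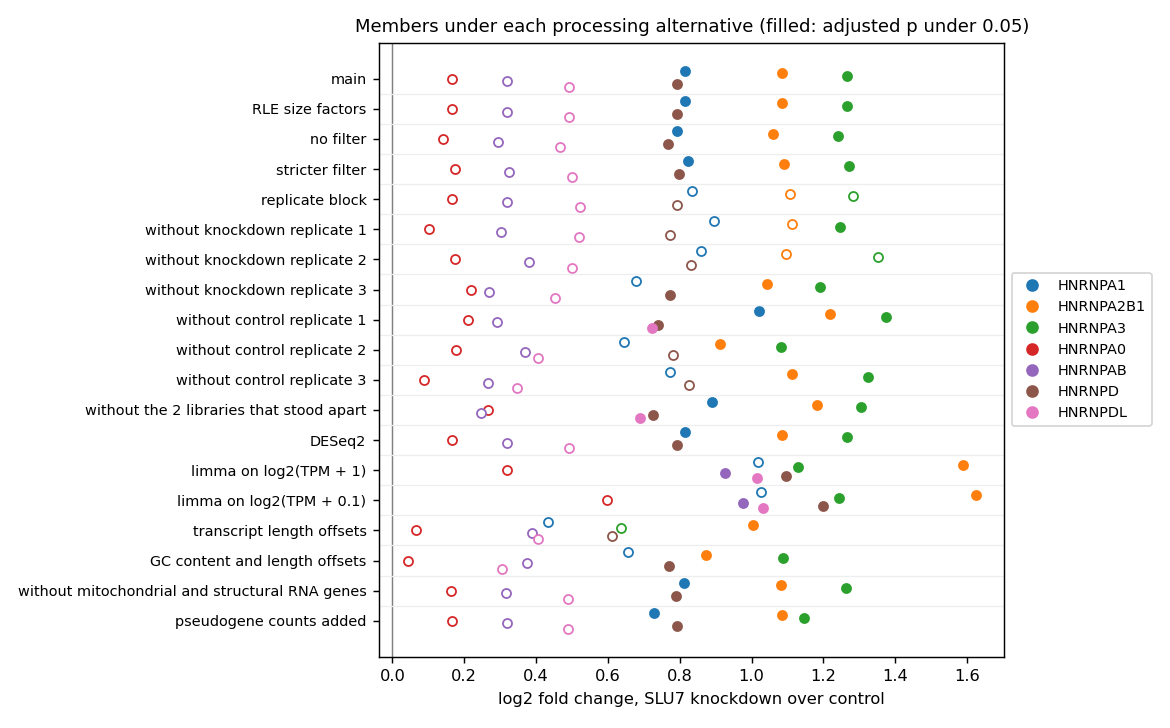
Log2 fold change of each gene, SLU7 knockdown over control (x axis), in the fit described in the text (top row) and under each processing alternative (other rows), with a colour per gene and filled points where the adjusted p was under 0.05. All points lie above 0, from 0.04 for HNRNPA0 with GC content and length offsets to 1.62 for HNRNPA2B1 on log2(TPM + 0.1), and the number of filled points varies from 0 to 5 per row.

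Levels between genes were compared in TPM, which accounts for transcript length. The order was the same in the means of both groups: HNRNPA1, HNRNPDL, HNRNPA2B1, HNRNPAB, HNRNPA3, HNRNPD and HNRNPA0. HNRNPA1 averaged 218 ± 42.7 TPM in the knockdown and 109 ± 30.7 TPM in the control, and HNRNPA0 averaged 1.17 ± 0.11 TPM in the knockdown and 0.744 ± 0.091 TPM in the control (SD, n = 3 each). HNRNPDL averaged 88.1 ± 5.6 TPM in the knockdown and 44.5 ± 14.7 TPM in the control. HNRNPA2B1, next in the order, averaged 76.2 ± 6.37 TPM in the knockdown and 25.8 ± 9.10 TPM in the control, and in the controls its range overlapped that of HNRNPDL. HNRNPAB averaged 22.9 ± 2.41 TPM in the knockdown and 11.6 ± 1.62 TPM in the control. HNRNPA3, with 15.3 ± 1.87 TPM in the knockdown and 6.70 ± 2.43 TPM in the control, could not be told from HNRNPD, with 14.999 ± 2.62 TPM in the knockdown and 6.46 ± 1.002 TPM in the control. On the log2(TPM + 1) scale the median of all genes was itself 0.35 higher in the knockdown, and 95.2% of the calls were higher there, against 42.8% of the calls on counts. On that scale limma called 3135 of 17109 genes. HNRNPA2B1, HNRNPA3, HNRNPAB, HNRNPD and HNRNPDL were among them but not HNRNPA1 (log2 fold change 1.02, limma adjusted p = 0.0626).

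The promoters of the genes that rose are shown because these members moved together. RefSeq windows (GRCh38.p14, from 250 bases before to 50 after the start) were on hand for 6 of the 7 genes, HNRNPA0, HNRNPA2B1, HNRNPA3, HNRNPAB, HNRNPD and HNRNPDL, and capitals mark CACGTG, an E-box that reads the same on both strands. HNRNPA3 lies at chr2:177212544-177212843 (plus strand), HNRNPD at chr4:82373942-82374241 (minus strand) and HNRNPA2B1 at chr7:26200697-26200996 (minus strand).
HNRNPA3: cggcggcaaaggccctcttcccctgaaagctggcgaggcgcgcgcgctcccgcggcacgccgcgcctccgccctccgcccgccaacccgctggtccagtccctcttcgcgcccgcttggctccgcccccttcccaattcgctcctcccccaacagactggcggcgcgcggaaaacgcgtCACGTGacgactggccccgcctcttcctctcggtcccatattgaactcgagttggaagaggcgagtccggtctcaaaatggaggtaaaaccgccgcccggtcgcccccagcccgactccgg
HNRNPD: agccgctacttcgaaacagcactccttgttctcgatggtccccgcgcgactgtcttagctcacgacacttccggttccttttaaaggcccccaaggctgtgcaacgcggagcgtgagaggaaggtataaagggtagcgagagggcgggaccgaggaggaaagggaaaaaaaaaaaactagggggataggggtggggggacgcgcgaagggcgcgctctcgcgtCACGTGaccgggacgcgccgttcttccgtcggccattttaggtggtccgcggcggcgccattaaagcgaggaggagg
HNRNPA2B1: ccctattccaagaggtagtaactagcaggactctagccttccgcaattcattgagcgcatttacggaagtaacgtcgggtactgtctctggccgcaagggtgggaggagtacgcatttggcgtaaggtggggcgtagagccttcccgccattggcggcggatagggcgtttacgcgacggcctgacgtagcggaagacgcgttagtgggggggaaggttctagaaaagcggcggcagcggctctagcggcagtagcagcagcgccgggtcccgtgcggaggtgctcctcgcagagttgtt

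CACGTG began 71 bases before the RefSeq start of HNRNPA3 and 27 bases before that of HNRNPD, starts that lie inside the GENCODE 29 gene bounds given above, and it also stood in both windows of HNRNPDL. It was thus found in 3 of the 6 genes and in 4 of their 7 windows, against 7.26% of 35116 promoter windows of this length. Those windows were not matched for GC content, which was 60.3% to 73.3% in the members' windows. HNRNPA2B1, HNRNPAB and HNRNPA0 had no CACGTG in this window. The other motifs searched on both strands were CCAAT in 5 of the 7 windows (34.6% of all windows), GGGCGG in 6 (45.0%), TATAAA in 2 (11.5%), CCGGAAG in 1 (10.3%), and the NRF1 motif (1.24%) and the YY1 motif (1.2%) in none. By gene, CCAAT and GGGCGG were each found in 5 of the 6. Genes that passed the test and genes that did not both had windows with the E-box. HNRNPA2B1 and its neighbour CBX3 start head to head and overlap by 368 bases, and HNRNPDL and ENOPH1 start head to head with 153 bases between them. CBX3, a heterochromatin protein gene, had a log2 fold change of -0.08 (edgeR adjusted p = 0.841), and ENOPH1, an enzyme of methionine salvage, had 0.64 (adjusted p = 0.0858).

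At the transcript level, 92 of the 183 annotated transcripts held at least 1 estimated count in some library and 50 were abundant enough to be tested. These 50 carried 96.4% of the family's counts, but only 69.9% of those of HNRNPA3. No transcript of any gene passed edgeR's adjusted test (0 of 43128), although 6956 (16.1%) had an unadjusted p under 0.05, and 14 of the family's 50 were among them. DESeq2 called 2812 of 43034 transcripts, among them 9 of the 50 in the family. Of these 9, 7 were higher in the knockdown, namely HNRNPA1-207, HNRNPA1-238, HNRNPA2B1-205, HNRNPA2B1-216, HNRNPA2B1-217, HNRNPA2B1-225 and HNRNPA3-208, and HNRNPAB-201 and HNRNPDL-201 were lower.

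Most transcripts annotated as retaining an intron had higher values in the knockdown. Of 12 tested, 11 had a log2 fold change above 0, with a median of 1.54, and in 7 every knockdown library was above every control. Most of the 12 belonged to HNRNPA1 and HNRNPA2B1, which rose as whole genes, and transcripts of the same gene are not independent. As a share of the gene, retained-intron transcripts overlapped between the groups in HNRNPA1, HNRNPA2B1, HNRNPA3 and HNRNPD. The test of class usage (diffSpliceDGE, Simes) gave an adjusted p of 0.772 for HNRNPA2B1 and 0.99988 for HNRNPA1. Over all genes, 64.3% of 7692 retained-intron transcripts were above 0, with a median of 0.35, and 25.2% had every knockdown library higher. Of 12 decay transcripts of the family 9 were above 0 (median 0.63) and 4 did not overlap in that direction, against 14.3% of decay transcripts over all genes. Of 26 protein-coding transcripts 18 were above 0 (median 0.65), 9 had every knockdown library higher and 2 every knockdown library lower, against 9.97% higher and 18.2% lower over all protein-coding transcripts, whose median was -0.20. None of the family's retained-intron or decay transcripts was lower in every knockdown library, against 7.64% of retained-intron and 10.3% of decay transcripts over all genes.

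HNRNPA2B1 was counted mostly in transcripts annotated with retained introns. They held 76.9%, 76.6% and 53.3% of its counts in the knockdown libraries, against 25.1%, 75.4% and 64.5% in the controls, and protein-coding transcripts held 5.20%, 8.16% and 16.7% in the knockdown libraries, against 31.3%, 15.3% and 17.4% in the controls. Control replicate 1 was far from the other controls, and the ranges overlapped in both classes. The retained-intron transcript with the largest log2 fold change, HNRNPA2B1-225, held 174, 87.0 and 102 estimated counts in the knockdown libraries, against 9.48, 18.7 and 14.3 in the controls. The groups were far apart, with a log2 fold change of 3.37 (SE 0.43, edgeR adjusted p = 0.0994). HNRNPA2B1-204, a form of 6284 bases with the most counts on average in each group, held 860.3, 668 and 445 in the knockdown libraries, against 250.3, 463 and 547 in the controls. Its counts overlapped between the groups, although its CPM did not, and the log2 fold change was 0.93 (SE 0.36, adjusted p = 0.283). The gene overlaps NFE2L3 and CBX3 on the opposite strand, and without a stated strand setting their reads cannot be told apart from intronic reads of HNRNPA2B1. The same limit holds for HNRNPAB, which overlaps PHYKPL by 2667 bases on the opposite strand. HNRNPA1 overlaps AC078778.2 by 6896 bases on its own strand. Overlaps of HNRNPA3 and HNRNPD were at most 203 bases.

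HNRNPA1 was counted mostly in protein-coding transcripts, which held 73.1%, 76.3% and 78.3% of its counts in the knockdown libraries and 71.6%, 78.5% and 84.9% in the controls. Among the coding forms, HNRNPA1-238, a form of 3999 bases, held 384, 362 and 483 estimated counts in the knockdown libraries, against 129, 98.7 and 103 in the controls. Every knockdown library held more than any control, with a log2 fold change of 2.22 (edgeR adjusted p = 0.0994). HNRNPA1-201, a form of 1294 bases, held 349, 249 and 289 in the knockdown libraries, against 723, 205.0 and 417 in the controls. Its counts overlapped, but as a share of the gene it stood at 19.2%, 15.3% and 14.4% in the knockdown libraries, below 39.5%, 19.8% and 30.5% in the controls. The test of transcript usage, which asks whether a gene's transcripts differ in their fold changes, gave an adjusted p of 0.99999 for HNRNPA1 (edgeR diffSpliceDGE with the Simes method), so the difference in split did not pass the test.

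**Figure D3:**
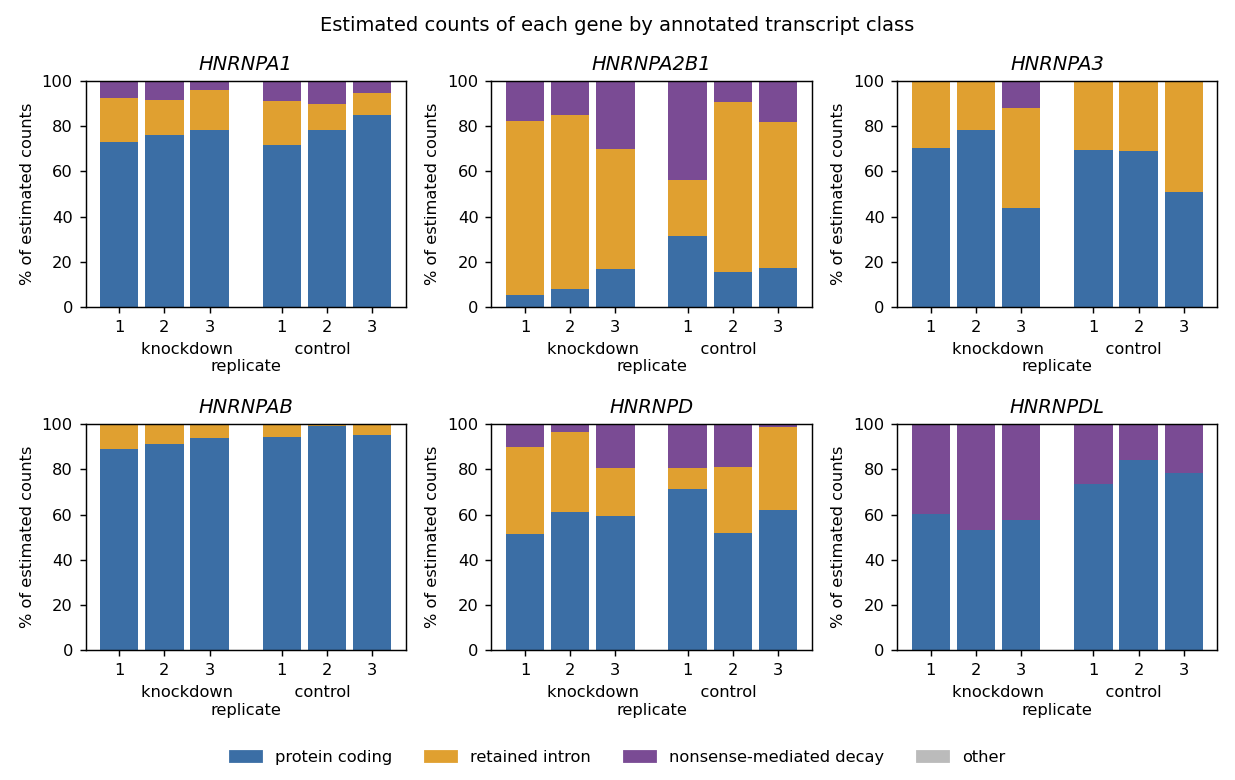
Share of each gene's estimated counts (y axis, percent) by annotated transcript class, with a bar per library and the 3 SLU7 knockdown libraries left of the 3 controls. The decay share of HNRNPDL is 39.9% to 46.7% in the knockdown libraries and 15.9% to 26.4% in the controls, and the bar of control replicate 1 differs from the other controls in HNRNPA2B1.

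HNRNPDL was the 1 gene of the 6 with several tested transcripts whose transcript usage changed (adjusted p = 0.0262), against 257 of 8869 genes (2.9%). Its coding transcript HNRNPDL-206 and its decay transcript HNRNPDL-202 end in the same codons. They differ at the 5′ end, where the first exon of HNRNPDL-202 (200 bases, chr4:82429248-82429447) has another start, and again just behind the stop codon. The end of the coding sequence at chr4:82426059-82426088 (GRCh38, minus strand) is shown with the stop codon in capitals.
HNRNPDL coding end: aatcaccaaaacaattaccagccatacTAA

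The exon that holds this stop codon ends 22 bases further on. HNRNPDL-202 (ENST00000349655.8) then carries an exon of 105 bases, chr4:82425563-82425667, in its 3′ UTR, before the last exon that it shares with HNRNPDL-206 (ENST00000602300.5). Both are annotated with the same protein of 301 residues, and HNRNPDL-202 has a further exon junction behind the stop codon, the arrangement that marks mRNAs for nonsense-mediated decay. Splicing of the 3′ UTR into such forms is the known route by which hnRNP D-like limits its own mRNA.

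HNRNPDL-202 held 341, 365 and 358 estimated counts in the knockdown libraries, against 229.5, 34.5 and 86.4 in the controls. HNRNPDL-206 held 573, 452 and 544 in the knockdown libraries, against 877, 598 and 548 in the controls. The decay form was higher in every knockdown library than in any control, while the coding form overlapped at this scale. As shares of the gene, HNRNPDL-202 took 31.8%, 39.4% and 36.8% in the knockdown libraries, against 18.1%, 4.23% and 11.1% in the controls, and HNRNPDL-206 took 53.4%, 48.8% and 55.9% in the knockdown libraries, against 69.2%, 73.5% and 70.3% in the controls. Neither share overlapped between the groups. How often single-transcript shares separate over all genes was not counted, but 26.4% of class shares did. Relative to the gene as a whole, HNRNPDL-202 had a log2 fold change of 1.58, with an adjusted p of its own of 0.407 (diffSpliceDGE).

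The transcript that carried the usage call was a minor one. HNRNPDL-201 (ENST00000295470.10), whose start codon lies upstream and which encodes the full-length protein of 420 residues in GENCODE 29, held 4.14, 0 and 0 estimated counts in the knockdown libraries, against 20.7, 54.5 and 37.6 in the controls. Its log2 fold change relative to the gene as a whole was -4.86 (diffSpliceDGE adjusted p = 0.0173). That value rests on a total of 4.14 counts in the knockdown and so depends on how such counts are modelled. Without knockdown replicate 1, which leaves no count in the knockdown, the fitted value was -8.51. Without knockdown replicate 2 or 3, or control replicate 2 or 3, the usage of HNRNPDL missed the threshold (adjusted p = 0.271, 0.240, 0.104 and 0.178). Without control replicate 1, where 808 of 9289 genes passed, it passed (adjusted p = 0.00182). There HNRNPDL-202 passed too (relative log2 fold change 2.28, adjusted p = 0.00868). With limma diffSplice in place of edgeR, HNRNPDL also passed, but through HNRNPDL-202 (2.27, adjusted p = 0.0109) and not through HNRNPDL-201 (-5.44, adjusted p = 0.390).

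**Figure D4:**
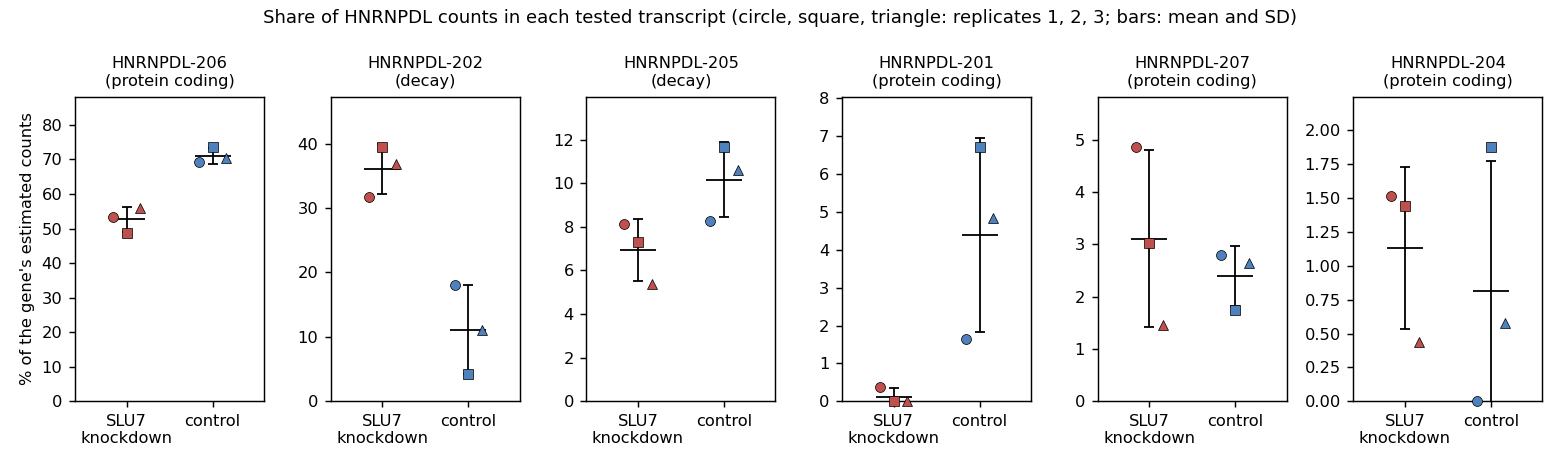
Share of HNRNPDL estimated counts in each of its 6 tested transcripts (y axes, percent, each from 0), SLU7 knockdown in red at the left and control in blue at the right of each panel, with the mean and SD. HNRNPDL-202 lies higher and HNRNPDL-206, HNRNPDL-205 and HNRNPDL-201 lie lower in all 3 knockdown libraries.

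Summed by class, decay transcripts of HNRNPDL took 42.9 ± 3.45% of its counts in the knockdown and 21.3 ± 5.26% in the control (SD, n = 3 each), a difference of 21.6 percentage points. The 2-sided exact permutation test gave p = 0.1, the smallest that 3 against 3 allows, and 0.509 after Benjamini-Hochberg adjustment over the 28 shares compared. In 12.2% of the decay classes tested over all genes, every knockdown share was also above every control share. The test of class usage did not call any of the 6 genes, against 165 of 6838 genes (2.41%), with HNRNPDL at an adjusted p of 0.196 and a relative log2 fold change of 0.97 for its decay class. Without control replicate 1 that adjusted p was 0.0131, and 446 of 7121 genes passed. The difference in the decay share ranged from 18.9 to 24.5 percentage points over all alternatives, and it was 24.5 without control replicate 1 and knockdown replicate 3.

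Of the 28 shares, 5 did not overlap between the groups at a tolerance of 0.001 percentage points, against 26.4% of class shares and 19.6% of coding-length shares over all genes. They were the coding and decay classes of HNRNPDL, the coding and retained-intron classes of HNRNPAB and the 420-residue form of HNRNPDL, and the classes of each pair add up to the whole gene. Retained-intron transcripts held 11.1%, 8.53% and 5.997% of HNRNPAB counts in the knockdown libraries, against 5.76%, 0.61% and 4.92% in the controls. Those groups were separate by a small margin, and over all genes 29.6% of retained-intron shares were higher in every knockdown library. HNRNPAB-201 held 0, 0 and 0.55 estimated counts in the knockdown libraries, against 22.8, 37.1 and 59.9 in the controls, and HNRNPAB-204 held 67.1, 37.2 and 52.2 in the knockdown libraries, against 0, 0 and 40.2 in the controls. The first was thus nearly unread with SLU7 knocked down and the second was read in 1 control library, yet the usage of HNRNPAB had an adjusted p of 0.273 (diffSpliceDGE).

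In HNRNPA3, with 3 tested transcripts, HNRNPA3-208, a coding form of 5600 bases, held 79.4, 131 and 11.8 estimated counts in the knockdown libraries and no whole count in any control, and HNRNPA3-204 held 165, 106 and 134 in the knockdown libraries, against 132, 52.7 and 92.7 in the controls. The usage of HNRNPA3 had an adjusted p of 0.0662 (diffSpliceDGE). Without knockdown replicate 3, where 226 of 9892 genes passed, it was 0.03999, and without any other single library 0.105 to 0.1615. It was 0.0125 with the stricter filter, 0.0475 with the gene-level test and 0.0279 without control replicate 1 and knockdown replicate 3. With no filter it was 0.207, with the replicate block 0.251 and with limma diffSplice 0.762. HNRNPD had no class or transcript whose groups were separate: its coding share was 51.4%, 61.1% and 59.3% in the knockdown libraries, against 71.5%, 52.0% and 61.9% in the controls, and the adjusted p of its usage was 0.99999. Coding lengths from GENCODE 29 covered all coding counts of HNRNPAB and HNRNPDL and 85.5% of those of HNRNPA2B1, but 36.5% of those of HNRNPA1, 60.4% of those of HNRNPD and 62.3% of those of HNRNPA3, so the comparison of protein forms is void for those 3 genes.

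Copies of the genes elsewhere in the genome share sequence with them, and the split of reads between copies is uncertain. The 76 HNRNPA1-derived symbols held 14.7%, 12.6% and 8.71% of the parent's counts in the knockdown libraries, against 11.8%, 25.1% and 22.5% in the controls. The 16 HNRNPA3-derived symbols held 13.5%, 14.3% and 8.90% in the knockdown libraries, against 24.9%, 23.8% and 16.6% in the controls, without overlap. With the copies added to their parents, the log2 fold change was 0.73 for HNRNPA1 and 1.15 for HNRNPA3, and both still passed (adjusted p = 0.0415 and 0.0106). Of 99 derived symbols 8 could be tested, with a median log2 fold change of 0.13, and HNRNPA1P16 rose (log2 fold change 0.94, adjusted p = 0.0495).

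Related genes were counted in the same fit. Of 21 other hnRNP genes 4 rose and 1 fell, with a median log2 fold change of 0.45. PCBP2, a poly(C)-binding protein, rose by 0.94 (adjusted p = 0.0109), HNRNPH3 by 1.06, HNRNPUL2 by 1.45 and SYNCRIP, which encodes hnRNP Q, by 0.69, while PTBP3, a relative of the polypyrimidine tract protein, fell by 0.89 (adjusted p = 0.0379). Of 10 SR protein genes, which act against hnRNP A1 at many exons, 4 rose and none fell: SRSF7 by 1.04, SRSF2 by 0.60, SRSF4 by 0.79 and SRSF10 by 0.63, with a median of 0.48 for the list. Over all genes 5.93% rose and 7.93% fell.

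Among 5 genes for import and arginine methylation of these proteins, TNPO2, a transportin, rose by 0.64 (adjusted p = 0.0425) and PRMT1, the main enzyme that methylates their glycine-rich tails, fell by 0.97 (adjusted p = 0.0106). PRMT1 averaged 45.5 ± 4.48 CPM in the knockdown and 89.2 ± 12.7 CPM in the control, and TNPO1, the import receptor of hnRNP A1, averaged 73.2 ± 12.8 CPM in the knockdown and 65.1 ± 4.95 CPM in the control (SD, n = 3 each). Of 4 related proteins with paired RNA recognition motifs TARDBP, the gene of TDP-43, rose by 0.65 (adjusted p = 0.0453). The medians of these lists were 0.01 and 0.06. Of 7 other binders of AU-rich elements none rose, and ZFP36, which encodes the destabilising factor tristetraprolin, fell by 2.45 (adjusted p = 0.0120). The median of that list was -0.016. ZFP36 averaged 4.91 ± 0.21 CPM in the knockdown and 26.9 ± 15.5 CPM in the control.

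**Figure D5:**
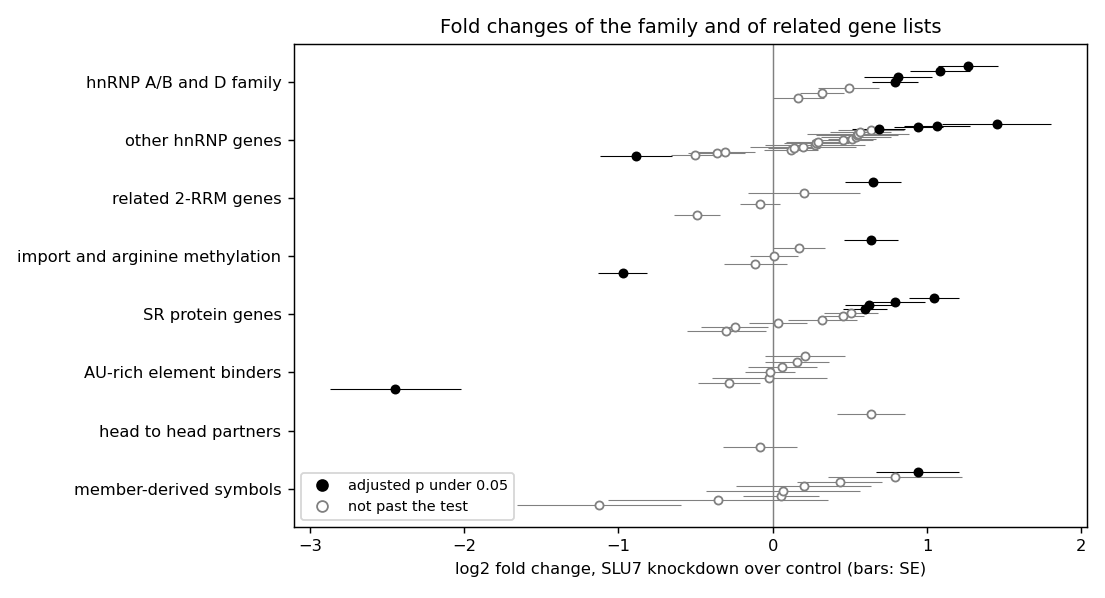
Log2 fold change, SLU7 knockdown over control, with its SE (x axis) for the tested genes of the family (top row) and of 7 related lists (other rows), filled where the edgeR adjusted p was under 0.05. All 7 family genes lie above 0 and 4 are filled, while the other lists hold points on both sides of 0.

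The genes whose pattern over the 6 libraries was most like the family mean were PPP1R10, SENP6, WDR43, ZNF232 and CDK17. Likeness was the root mean square difference of log2 CPM centred on each gene's mean, over 5400 candidates, and it ran from 0.033 for PPP1R10 to 0.054 for CDK17. The nearest gene was RNF216 for HNRNPA1, ZNF507 for HNRNPA2B1, CEP95 for HNRNPA3, KLHL15 for HNRNPD, TCAF1 for HNRNPDL and COMMD4 for HNRNPAB. Within the family HNRNPA2B1 and HNRNPA3 were the most alike (0.12), followed by HNRNPA0 and HNRNPAB (0.15) and by HNRNPA1 and HNRNPA2B1 (0.18), and HNRNPA0 and HNRNPA3 were the least alike (0.61).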

How the data were processed

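RNA from 3 SLU7 knockdown and 3 control libraries was sequenced; the labels give polyA RNA, TRIzol extraction and a ScriptSeq kit. The submitters' processing notes list kallisto 0.46.1, sleuth 0.30.0, Trimmomatic 0.38 and FastQC 0.11.8 and the build GRCh38, giving neither role nor order. Estimated counts per transcript were deposited by the authors, split between similar transcripts per the file headers, neither normalized nor whole. The TPM values deposited beside them take the effective transcript length into account, per the file headers. Annotation release and strand setting are not given in the sources used, and the uncertainty of splitting reads was not modelled.

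Estimated counts were summed per gene (or per gene and transcript class) and rounded to whole numbers, after 159 records on the chromosome Y pseudoautosomal regions were added to those on X. edgeR 4.0.16 in R 4.3.3 was run with TMM, filterByExpr (minimum count 10, total 15) and the quasi-likelihood test over all 6 libraries, with Benjamini-Hochberg adjustment at 0.05 over all features tested: 17109 genes, 43128 transcripts, 8869 genes for transcript usage (diffSpliceDGE, Simes) and 6838 genes for class usage. Relative log2 fold changes are those of diffSpliceDGE turned from natural log to log2. Shares were compared, to 0.001 percentage points, with a 2-sided exact permutation test. The scripts were tested on simulated data. CPM is relative to the TMM-scaled library size, except for cell type markers and family shares, which are relative to the total count. Depth was between 5191452 and 8693977 estimated counts, which limits precision for transcripts of a few counts.

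The members and lists were chosen with earlier results of these data known. Named were all members, from each list the genes with the smallest p that passed, at most 4, or 2 where none passed, and the genes of most similar pattern, except that the gene nearest to HNRNPA0 is not reported here; PTBP3, TNPO1 and the transcripts described one by one were named after their values were seen. Alternatives were DESeq2 1.42.0, RLE size factors, a stricter filter (a mean of 1 CPM and a count of 10 in 3 libraries) and none, a block for the replicate number, each library left out in turn, leaving out control replicate 1 with knockdown replicate 3, limma 3.58.1 on log2(TPM + 1) and log2(TPM + 0.1), offsets for transcript length, offsets for GC content and length (mgcv 1.9.3, 97.6% of tested genes), removal of mitochondrial and structural RNA genes, pseudogene counts added, the gene-level usage test, limma diffSplice and shares of TPM. Same-numbered libraries had deviations from their group means that correlated at -0.41, 0.11 and -0.37, which shows no likeness by number. With 3 libraries per group these correlations are tied to each other, so they cannot decide whether the numbers pair the libraries. Replicate numbers were taken from the sample titles.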

Additional observations from a re-analysis of the deposited data

How the results depend on the processing

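No log2 fold change of a member and no difference in the HNRNPDL decay share changed sign under any alternative run, but on log2(TPM + 1), where the median of all genes was 0.35, HNRNPA0 lay at -0.034 relative to that median. Of the 18 alternatives for gene expression, 12 kept the number of members past the test within 1.5 times of 4. The others gave 1 member (HNRNPA2B1) with transcript length offsets, where 989 genes passed, and 0 members and 0 genes with the replicate number as a block, where 4209 genes had an unadjusted p under 0.05; DESeq2 called the same number of members, 4. Leaving out a single library gave between 0 and 5 members and between 0 and 4457 genes, and leaving out control replicate 1 and knockdown replicate 3 together gave 5 members and 5248 genes. Both TPM settings gave 5 members, with 3135 and 2801 of 17109 genes passing and 95.2% and 95.4% of calls higher. With no filter 3196 of 38831 genes passed. For transcripts, 2 of 92 in the family passed with no filter, against 94 of 141024 over all genes. In DESeq2 9 of 50 passed, against 2812 of 43034. For transcript usage, 0 members passed with no filter (287 of 17854 genes passed) and 0 with the replicate block (87 of 8869). With the stricter filter 2 members passed (245 of 8877 genes), and with the gene-level test 2 (442 of 8869). Without control replicate 1 and knockdown replicate 3, 2 members passed (865 of 9239 genes). Leaving out a single library gave 0 to 2 members, with 156 to 808 genes passing. For class usage, 1 member (HNRNPDL) passed with the gene-level test (596 of 6838 genes passed) and with limma diffSplice (597 of 6838). It also passed without control replicate 1 and knockdown replicate 3 (483 of 7056 genes). Leaving out a single library gave 0 to 1 members, with 31 to 446 genes passing. The number of shares without overlap was 6 on TPM, 6 to 12 when a single library was left out and 16 without both libraries, where fewer libraries overlap less often by construction. The cause of the other changes was not tested. The replicate block changed the HNRNPDL usage p to 0.308. Low counts limit the transcript results: HNRNPDL-201, HNRNPAB-201 and HNRNPA3-208 each rest on a group with almost no reads.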

Other observations

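HNRNPDL-205, the other decay transcript of HNRNPDL tested, did not follow HNRNPDL-202. It took 8.14%, 7.30% and 5.40% of the gene's counts in the knockdown libraries, against 8.27%, 11.6% and 10.6% in the controls, lower in every knockdown library than in any control. The decay transcripts of HNRNPDL thus had shares on both sides. In CPM, however, HNRNPDL-205 overlapped between the groups, with a log2 fold change of -0.15 (edgeR adjusted p = 0.822). Shares of a gene add up to the whole, so a higher share of HNRNPDL-202 lowers those of other transcripts. Of the 4 tested retained-intron forms of HNRNPA1, HNRNPA1-259 took 1.63%, 1.89% and 2.64% of the gene in the knockdown libraries, against 8.75%, 4.82% and 3.53% in the controls, lower in every knockdown library. The shares of the others, HNRNPA1-207, HNRNPA1-211 and HNRNPA1-280, overlapped between the groups. For single-transcript shares the rate of separation over all genes was not counted, and 26.4% of class shares were separate.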
